A study of Equus caballus with 21 samples.

Results

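The 8 genes described here encode secreted proteins that bind or oppose growth factors, or are growth factors held in the matrix: the insulin-like growth factor (IGF) binding proteins IGFBP5, IGFBP7, IGFBP2, IGFBP3, IGFBP4 and IGFBP6, follistatin (FST) and pleiotrophin (PTN). They were chosen by name, with earlier results of these data known, and all 8 of 8 were found among the 24942 gene IDs of the count table. RNA was sequenced from horse endometrium, the lining of the uterus, in 21 libraries of 5 warmblood mares (B, C, J, M and U); the series' own outline counts 6 mares, and the 5 letters of the labels were taken as they stand. Stroma, glandular epithelium and luminal epithelium were each cut out of frozen uterine biopsies by laser capture, so that a library is 1 compartment of 1 biopsy. Pregnant mares had been inseminated and were biopsied on day 12 of pregnancy. Cyclic mares, the controls, were biopsied on day 12 of the estrous cycle, and ovulation had been induced with human choriogonadotropin in both states. Mares B, C, M and U were sampled in both states, and mare J gave 1 cyclic luminal library. Pregnant and cyclic libraries numbered 2 and 2 in stroma, 4 and 4 in glandular epithelium, and 4 and 5 in luminal epithelium. Stroma came from mares M and U in pregnancy and from mares B and M in the cycle, so the states shared only mare M there, and other mare differences and the state cannot be told apart in stroma.

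Insulin-like growth factors act through the receptor IGF1R, and their binding proteins hold them in complexes, so that the amount and place of a binder set how much ligand reaches the receptor. Follistatin binds activins with high affinity and thereby blocks their access to receptors, and pleiotrophin is a heparin-binding cytokine of the midkine family that is stored in the extracellular matrix. In the uterus, IGFs, activins and their binders are known as signals between stroma, epithelium and conceptus. The horse conceptus remains mobile within the uterus at this stage.

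The libraries were made from very little RNA and were shallow. Total counts ran from 136259 to 1467510 per library, and 4072 to 11798 genes had a count. A single count was worth 0.576 to 6.86 CPM (counts scaled to a common library size by the trimmed mean of M values, TMM, over all 21 libraries), and the share of RN18S, the 18S ribosomal RNA gene, ran from 0.293% to 66.2%. Its highest share was in the pregnant stromal library of mare M and was 0.819% in that of mare U. Lists of defining markers largely followed the labels, with overlaps. The summed level of 9 measured stromal fibroblast markers was 4609 to 11409 CPM in the 4 stromal libraries, against 328 to 1626 CPM in glandular and 556 to 5117 CPM in luminal libraries. The pregnant luminal library of mare M held the highest of these luminal sums, with 4 of the 9 markers at 0 and COL1A1, a fibrillar collagen gene, at 2709.6 CPM. Epithelial markers (6 measured) summed to 67.0 to 561 CPM in stromal, 565 to 2857 CPM in luminal and 898 to 15189 CPM in glandular libraries. Gland markers (4 measured) summed to 996 to 5794 CPM in stromal, 1051 to 4482 CPM in luminal and 14482 to 53408 CPM in glandular libraries. FOXA2, on the gland list, was at 0 in every library. The sums hide a split within this list. Of 3 gland markers tested between the epithelia by edgeR, 2 were higher and 1 was lower in glands at an adjusted p under 0.05. Stromal libraries also carried smooth muscle and pericyte markers at a sum of 688 to 2501 CPM and endothelial markers at 84.3 to 1121 CPM, so they were not of 1 cell type. The labels do not say which libraries had received an additional amplification.

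The 8 genes did not share 1 pattern. Every stromal library was above every one of the 17 epithelial libraries for IGFBP5, FST and PTN, which was true of 30 of the 9789 genes that passed the filter over all libraries (0.306%). Because the 8 genes were chosen with earlier results known, that share is background and no measure of enrichment. IGFBP7 was high in stroma and present in most luminal libraries. IGFBP3 had its highest mean in luminal epithelium and was low in stroma, so the set was not uniformly stromal. Its luminal range, from 6.32 CPM, overlapped those of glands (up to 61.7 CPM) and stroma (up to 18.3 CPM). IGFBP4, IGFBP6 and IGFBP2 had 72, 112 and 31 counts over all libraries, and their presence changed from 1 library to the next. Gene lengths were not used, so CPM values are compared between libraries and never between genes. In captured tissue, fewer cells of a type and less RNA per cell cannot be told apart.

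**Figure D1:**
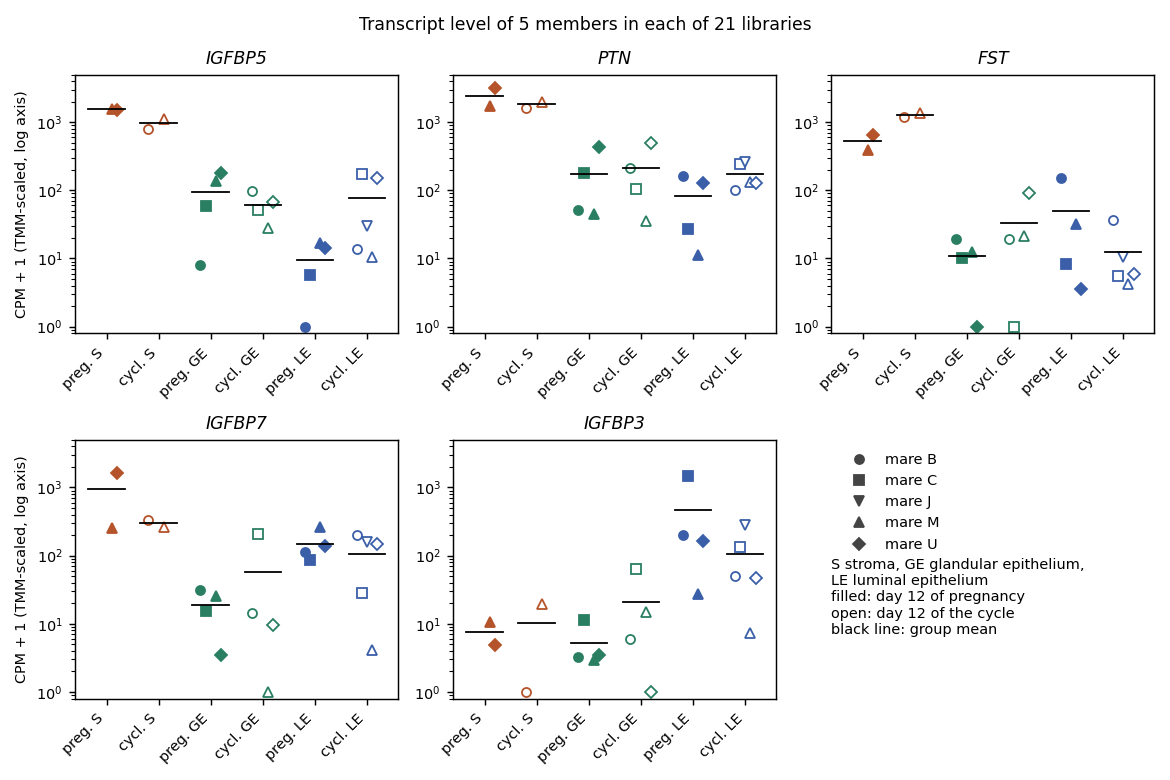
Level of IGFBP5, PTN, FST, IGFBP7 and IGFBP3 as CPM + 1 on a log axis in each of 21 libraries, with mares as symbols, pregnant libraries filled and cyclic ones open, and the group mean as a black line. The 4 stromal libraries lie above all 17 epithelial libraries for IGFBP5, PTN and FST, overlap them slightly for IGFBP7, and for IGFBP3 lie among the low glandular libraries, at 0 to 18.3 CPM.

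IGFBP5, an IGF binder that also attaches to extracellular matrix, was a stromal transcript. It had 1579 CPM in mare M and 1498 CPM in mare U in pregnant stroma, against 806 CPM in mare B and 1127 CPM in mare M in cyclic stroma. Pregnant glandular libraries held 6.91, 57.6, 138 and 176 CPM, and cyclic ones 27.4, 50.6, 65.6 and 95.3 CPM. Pregnant luminal libraries held 0, 4.80, 13.1 and 15.6 CPM, and cyclic ones 9.48, 12.7, 28.5, 151 and 173 CPM. The group means fell in the order pregnant stroma, cyclic stroma, pregnant glandular, cyclic luminal, cyclic glandular and pregnant luminal epithelium. Ranges of neighbouring groups overlapped among the 3 middle epithelial groups, and not elsewhere in that order.

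PTN, the heparin-binding cytokine, had counts in all 21 libraries. It stood at 1743 CPM in mare M and 3171 CPM in mare U in pregnant stroma, and at 1633 CPM in mare B and 2004 CPM in mare M in cyclic stroma. Glandular levels averaged 174 ± 178 CPM in pregnancy and 212 ± 206 CPM on cyclic day 12 (SD, n = 4 each). Luminal levels averaged 81.6 ± 74.9 CPM in pregnancy (SD, n = 4) and 173 ± 72.2 CPM in the cycle (SD, n = 5). The highest epithelial library was the cyclic glandular one of mare U, at 502 CPM, and the lowest was the pregnant luminal one of mare M, at 10.4 CPM. Epithelial groups next to each other in the order of levels overlapped.

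FST, the activin antagonist, was likewise high in each stromal library. Pregnant stroma held 392 CPM in mare M and 651 CPM in mare U, against 1179 CPM in mare B and 1383 CPM in mare M in cyclic stroma. In glandular epithelium FST averaged 9.79 ± 7.61 CPM in pregnant and 32.0 ± 39.1 CPM in cyclic libraries (SD, n = 4 each), and 1 library of each state had no count. In luminal epithelium it averaged 48.0 ± 69.7 CPM in pregnancy (SD, n = 4) and 11.6 ± 13.8 CPM in the cycle (SD, n = 5). The pregnant luminal library of mare B, at 151 CPM, was the highest of the epithelium.

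IGFBP7, a secreted IGFBP-related protein with low affinity for IGFs, was less confined. Pregnant stroma held 257 CPM in mare M and 1632 CPM in mare U, a gap far wider than the 334 CPM of mare B and 262 CPM of mare M in cyclic stroma. Pregnant luminal libraries held 86.3, 112, 136 and 260 CPM, against 3.16, 27.4, 146, 158 and 196 CPM in cyclic ones. Pregnant glandular libraries held 2.44, 14.4, 24.9 and 30.0 CPM, against 0, 8.47, 13.4 and 207 CPM in cyclic ones. The stromal minimum and the luminal maximum, both in pregnant biopsies of mare M, nearly coincided.

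The stromal excess was tested against each epithelium within the same biopsies. Counts were summed per mare over 4 biopsies of mares B, M and U, and edgeR's quasi-likelihood test, adjusted by Benjamini and Hochberg's method, had the mare as a block. Against luminal epithelium, IGFBP5, FST and PTN were called higher in stroma, among 4 members that passed the filter on low counts and beside 20 of 3512 genes tested (0.569%). Against glandular epithelium, IGFBP5, IGFBP7, FST and PTN were called higher, among 5 members that passed and beside 38 of 4830 genes (0.787%). The filter partly sets these counts. It needs a minimum level in 3 of the 6 summed samples, and IGFBP5 against luminal epithelium reached that level in stroma of all 3 mares and in luminal epithelium of none. FST reached it in 1 of 3 luminal and 1 of 3 glandular sums and IGFBP7 in 1 of 3 glandular sums, beside 3 of 3 stromal ones. The number of members called, and these calls of IGFBP5, FST and IGFBP7 with their p-values, are therefore read as a description only. The median log2 fold change of all genes tested was -0.60 against luminal and -1.07 against glandular epithelium, so the members' values stand further from the bulk of genes than from 0. All fold changes below are on the log2 scale with an SE that rests on spread shared between genes.

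Summed per mare, IGFBP5 had 806, 1471 and 1498 CPM in stroma of mares B, M and U, against 12.7, 11.8 and 13.1 CPM in their luminal epithelium. Those luminal values rest on 6 or fewer counts per library. The difference was 6.66 ± 1.18 (adjusted p = 1.32e-05), with stroma higher in 3 of 3 mares. Against glandular epithelium, at 95.3, 114 and 176 CPM in the same mares, it was 3.39 ± 0.99 (adjusted p = 0.0464). The glandular call lay close to the threshold. Among the 8 genes IGFBP5 was the only one to keep its stromal call against luminal epithelium without each mare in turn. It passed the filter there through its stromal sums alone, so this call and its persistence are read as a description.

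FST had 1179, 628 and 651 CPM in stroma of mares B, M and U, against 35.9, 13.8 and 2.62 CPM in luminal epithelium, the last from 1 count. The difference was 6.01 ± 1.26 (adjusted p = 0.000431). Glandular libraries of the same biopsies held 18.4, 13.5 and 0 CPM, and the difference there was 6.70 ± 1.32 (adjusted p = 0.000778). Stroma was higher in 3 of 3 mares in both comparisons. FST passed the filter through its stromal sums in both, so these calls are read as a description.

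PTN differed by 4.44 ± 0.96 from luminal epithelium (adjusted p = 0.000715) and by 3.82 ± 0.97 from glandular epithelium (adjusted p = 0.0142). In the biopsies where the epithelium had more than 3 counts, stroma held 15.1 to 25.2 times the luminal level and 7.47 to 58.4 times the glandular level. The narrower glandular gaps were those of mares B and U.

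IGFBP7 was 5.52 ± 1.33 higher in stroma than in glandular epithelium (adjusted p = 0.0105), with 334, 258 and 1632 CPM in stroma of mares B, M and U and 13.4, 19.5 and 2.44 CPM in glands. That call is read as a description, since IGFBP7 passed the filter there through its stromal sums. Against luminal epithelium, at 196, 100 and 136 CPM, the difference of 1.97 ± 1.08 did not pass (adjusted p = 0.557), although stroma was higher in 3 of 3 mares. Pregnant stroma of mare M, compared with its own luminal library, held 0.989 times as much. The direct test between the epithelia, given with the luminal results, did not pass for IGFBP7.

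**Figure D2:**
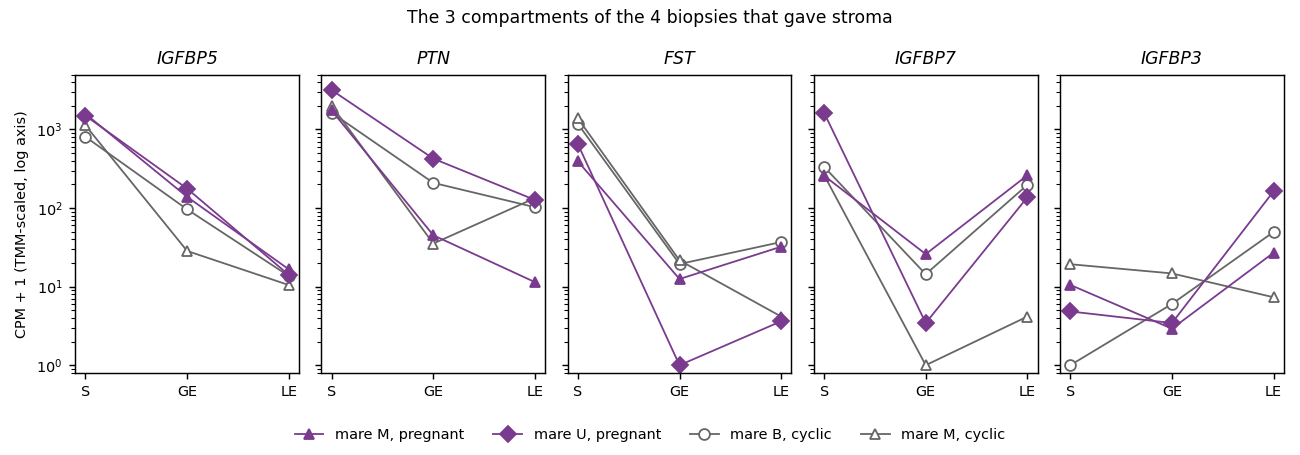
Levels (CPM + 1, log axis) of 5 genes in stroma (S), glandular (GE) and luminal epithelium (LE) of the 4 biopsies that gave stroma, each biopsy a line, pregnant biopsies in purple and cyclic ones in grey. IGFBP5, PTN and FST drop from stroma to both epithelia in every biopsy, IGFBP7 dips in glands, and IGFBP3 is highest in luminal epithelium in 3 of 4 biopsies.

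These calls rest on few animals. Without mare M, only IGFBP5 remained called against luminal epithelium, with adjusted p = 0.0531 for FST and 0.0686 for PTN, and PTN was also lost without mare B (adjusted p = 0.0598). Against glandular epithelium no member was called without mare B or without mare M, and IGFBP7 was lost without mare U (adjusted p = 0.778). Without the pregnant biopsy of mare M, whose stromal library had the highest RN18S share, FST alone was called against glands. Without a filter on low counts IGFBP5 (adjusted p = 0.211) and IGFBP7 (adjusted p = 0.0683) were not called against glands. The direction of each called member stayed the same in all of these.

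Markers of other cells moved with the stromal transcripts. Of 8 smooth muscle and pericyte markers, TAGLN (6.17 against luminal, 7.98 against glandular epithelium) was higher in stroma in both comparisons and MYH11 (8.28) against glands. Endothelial markers summed to 823 CPM in mare M and 84.3 CPM in mare U in pregnant stroma, and to 749 CPM in mare B and 1121 CPM in mare M in cyclic stroma, against 0 to 275 CPM in epithelium. In pregnant stroma of mare U, 7 of the 8 endothelial markers were at 0 and only PECAM1 had a count, while FST stood at 651 CPM there. LYVE1, an endothelial gene that is not on this list, ran from 83.8 to 280 CPM over the 4 stromal libraries, that of mare U included. It is named because its levels ran like those of FST over these same libraries, so its presence beside FST is no separate result. The part of muscle, vessel or fibroblast numbers in the level of any member was not tested.

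IGFBP3, the main carrier of IGFs in the circulation, ran the other way. Luminal libraries held 26.0, 162, 198 and 1465 CPM in pregnancy, from mares M, U, B and C. They held 6.32, 45.2, 48.6, 132 and 285 CPM in the cycle, from mares M, U, B, C and J. Pregnant glandular libraries held 1.92, 2.30, 2.44 and 10.4 CPM, against 0, 5.02, 13.7 and 61.7 CPM in cyclic ones. Pregnant stroma held 3.83 and 9.52 CPM and cyclic stroma 0 and 18.3 CPM, which were 9 counts in all. The order of group means was pregnant luminal, cyclic luminal, cyclic glandular, cyclic stroma, pregnant stroma and pregnant glandular, and every neighbouring pair overlapped.

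Glandular minus luminal epithelium was tested over mares B, C, M and U with 5 members, and IGFBP3 was the 1 called. It was lower in glands by a log2 difference of -4.26 ± 1.05 (adjusted p = 0.00164), with 4.29, 24.1, 4.49 and 1.13 CPM in glands of mares B, C, M and U, against 115, 500, 13.8 and 90.9 CPM in their luminal epithelium. Glands were lower in 4 of 4 mares, and 236 of 7174 genes were lower in glands (3.29%). IGFBP3 reached the filter's minimum in luminal sums of all 4 mares and in 1 of 4 glandular sums. It thus passed through the compartment where it is high, and this call is read as a description. The call was lost without mare C (adjusted p = 0.405) and without mare B (adjusted p = 0.0558). IGFBP3 did not pass the filter in stroma minus luminal epithelium, where 0 of 3 stromal and 2 of 3 luminal sums reached the minimum. Without mare M it passed, and edgeR gave -5.86 ± 4.17 (adjusted p = 0.766). Without the filter, stroma minus luminal epithelium was -3.96 ± 3.62 (adjusted p = 0.955), an interval too wide to set a size.

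None of the other 4 members tested passed over all genes. IGFBP7 was lower in glands in 3 of 4 mares, with a difference of -2.49 ± 1.17 (unadjusted p = 0.0335, adjusted p = 0.26) that DESeq2 called (-2.58, adjusted p = 0.0211). IGFBP5 differed by 1.37 ± 1.12 (adjusted p = 0.673), FST by 0.26 ± 1.77 (adjusted p = 0.98) and PTN by 0.23 ± 0.66 (adjusted p = 0.957).

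Cilia genes moved with IGFBP3. The summed level of 4 measured ciliated cell markers was 4.88 to 479 CPM in glandular libraries and 125 to 2075 CPM in luminal libraries, against 6.09 to 84.3 CPM in stroma. FOXJ1, the transcription factor of motile cilia, was lower in glands than in luminal epithelium by a log2 difference of -4.18 (adjusted p = 5.44e-08), as was TPPP3 (-2.96, adjusted p = 0.00978). In pregnant luminal epithelium the marker sum was 2075 CPM in mare B, 535 CPM in mare C, 125 CPM in mare M and 878 CPM in mare U, so the library with the most IGFBP3, that of mare C, was not the one with the most cilia markers. In cyclic luminal epithelium of mare M the sum was 824 CPM while IGFBP3 was at 6.32 CPM. The part of ciliated cells in the level of IGFBP3 was not tested.

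The ratio of 2 genes' counts within a library does not depend on scaling or on the RN18S share. The log2 ratio of IGFBP3 to IGFBP5, after adding 0.5 to each count, was -8.83 to -5.73 in the 4 stromal libraries, -5.98 to 0.28 in the 8 glandular libraries and -1.72 to 7.93 in the 9 luminal libraries. Stromal and luminal libraries did not overlap, while glandular libraries overlapped both. The ratio uses the counts already described, and IGFBP5 alone separated stromal from epithelial libraries, so it adds no second result. How often the ratio of any 2 genes separates these compartments was not counted. The extreme ratios rest on few counts and on the added 0.5: in pregnant luminal epithelium IGFBP5 had 0 counts in mare B, 2 in mare C, 3 in mare M and 5 in mare U, and IGFBP3 had 0 counts in cyclic stroma of mare B.

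IGFBP4, IGFBP6 and IGFBP2 were detected in few libraries. IGFBP4, an IGF binder that the protease PAPPA cleaves, had counts in 7 libraries and reached 60.3 CPM (23 counts) in pregnant luminal epithelium of mare U. IGFBP6, which prefers IGF2, had counts in 5 libraries, of which 73 of 112 counts were in pregnant stroma of mare M at 139 CPM. Its level was 0 in pregnant stroma of mare U and in both cyclic stromal libraries, where 3 counts over the cyclic group would have been 6.73 CPM. IGFBP2 had counts in 6 libraries and reached 19.2 CPM (5 counts) in pregnant stroma of mare U. Only IGFBP6 could be tested, in stroma minus glandular epithelium, with a difference of -0.45 ± 3.30 (adjusted p = 0.976). The cyclic glandular library of mare B held all 3 genes, with 21 counts of IGFBP4, 22 of IGFBP6 and 14 of IGFBP2. At this depth no difference in these 3 genes was detectable.

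**Figure D3:**
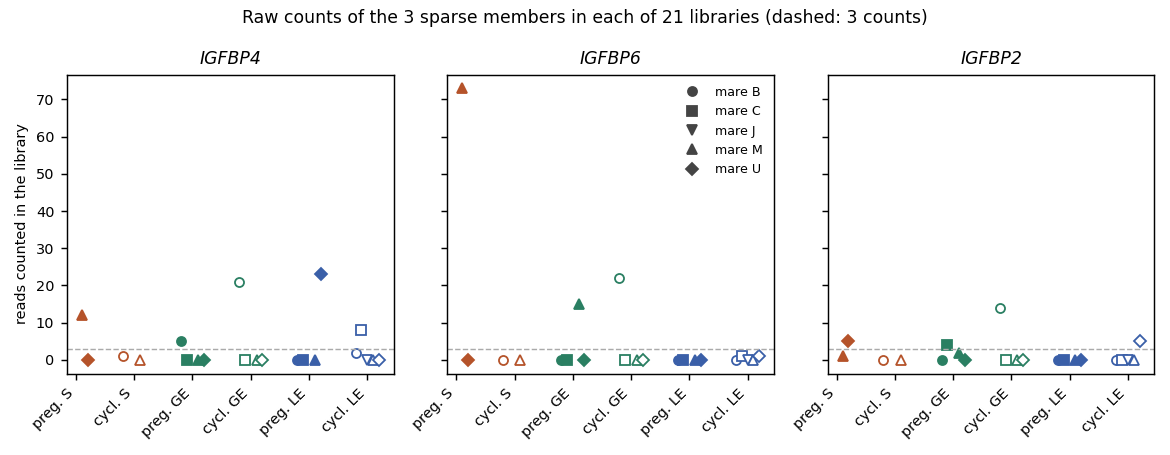
Raw counts of IGFBP4, IGFBP6 and IGFBP2 in each of 21 libraries, pregnant filled and cyclic open, with mares as symbols and a dashed line at 3 counts. Most libraries lie at 0, and the highest point is the 73 counts of IGFBP6 in pregnant stroma of mare M.

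The pregnancy comparison asked whether the members differ between pregnant and cyclic mares within a compartment. No member was called in any compartment. In luminal epithelium 3 members were tested, and 19 of 4344 genes were called (0.437%). In glandular epithelium 2 members were tested, and 3 of 4816 genes were called (0.0623%). In stroma 4 members were tested and no gene of 2212 was called by edgeR (0%), while 88 had an unadjusted p under 0.05 and DESeq2 called 4.

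In luminal epithelium IGFBP3 was higher in pregnancy than in the cycle in each of the 4 mares sampled in both states. Mare B had 198 against 48.6 CPM and mare C 1465 against 132 CPM. Mare M had 26.0 against 6.32 CPM, on 5 against 2 counts, and mare U 162 against 45.2 CPM. The share of all genes that were higher in each of the 4 mares was not counted. The ranges of the states overlapped, at 26.0 to 1465 CPM in pregnancy and 6.32 to 285 CPM in the cycle. The difference was 2.05 ± 0.86, which did not pass over all genes (unadjusted p = 0.0176, adjusted p = 0.44). The mare as a block, a fit without mare J, gave 2.39 (adjusted p = 0.586), and without mare J but with no block the difference was 2.93 (adjusted p = 0.245). Without the pregnant library of mare C the difference was 0.33 (adjusted p = 0.975). The summed stromal fibroblast markers were also higher in the pregnant luminal library of each of these mares, at 3133 against 818 CPM in mare B, 1458 against 1306 CPM in mare C, 5117 against 1327 CPM in mare M and 1150 against 556 CPM in mare U, and their part in the IGFBP3 values was not tested. IGFBP7 (0.48 ± 1.13, adjusted p = 0.982) and PTN (-1.07 ± 1.13, adjusted p = 0.967) did not pass, and PTN was lower in pregnancy in 3 of 4 mares.

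IGFBP5 was missing from the luminal test because too few libraries had enough counts. Its 4 pregnant luminal libraries held 10 counts in all (0 to 15.6 CPM), and the 5 cyclic ones 304 counts (9.48 to 173 CPM). It was lower in pregnancy in 3 of 4 mares, most widely in mare C (4.80 against 173 CPM) and mare U (13.1 against 151 CPM), and higher in mare M (15.6 against 9.48 CPM). A joint fit of all 21 libraries, which keeps it, gave -3.21 ± 1.09 (adjusted p = 0.279).

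In stroma, FST was lower and IGFBP5 higher in both pregnant libraries than in both cyclic ones. Groups of 2 against 2 separate often: 266 of the 2212 genes tested were lower in both pregnant libraries (12%) and 426 were higher in both (19.3%). The difference for FST was -1.24 ± 1.25 and that for IGFBP5 0.76 ± 1.18 (adjusted p = 0.999 for both). In mare M, the 1 animal with both states, FST was 392 CPM when pregnant against 1383 CPM when cyclic, and IGFBP5 was 1579 against 1127 CPM. IGFBP7 (1.65 ± 1.40) and PTN (0.49 ± 1.15) also had adjusted p = 0.999. The IGFBP7 value rests on pregnant stroma of mare U, since without that library it was -0.11.

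**Figure D4:**
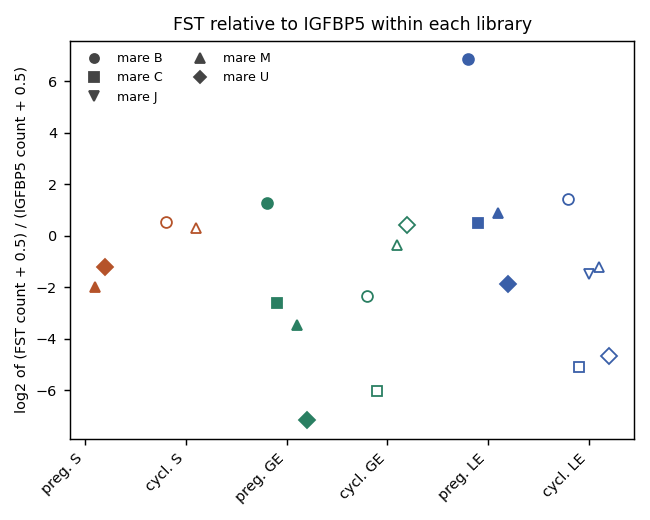
Log2 ratio of the FST count to the IGFBP5 count within each library, 0.5 added to both, by group, with mares as symbols and pregnant libraries filled. In stroma the 2 pregnant libraries (-2.01 and -1.20) lie lower than the 2 cyclic ones (0.55 and 0.29); the epithelial libraries scatter widely on few counts.

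Taken as a ratio within the library, FST to IGFBP5 was -2.01 in mare M and -1.20 in mare U in pregnant stroma, against 0.55 in mare B and 0.29 in mare M in cyclic stroma (log2). These ratios rest on 170 to 206 FST counts in the pregnant and 227 to 332 in the cyclic libraries. The smallest two-sided p that an exact permutation test can give for 2 against 2 libraries is 0.333, so that test cannot reach 0.05, and no other test of the ratio was run. Since FST was lower and IGFBP5 higher in both pregnant libraries, their ratio had to separate the states and adds no second result. FST relative to PTN, which uses the same FST counts, was -2.15 and -2.28 in pregnancy against -0.47 and -0.53 in the cycle. How often the ratio of any 2 genes separates 2 against 2 libraries was not counted.

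In glandular epithelium IGFBP5 differed by 0.69 ± 1.23 and PTN by -0.30 ± 0.97 (adjusted p = 0.999 for both), and the sign of PTN turned without any of 3 single libraries. Whether the pregnancy effect differed between the epithelia was tested with biopsies as blocks in the 16 epithelial libraries of B, C, M and U. None of 5 members passed, while 1 of 6884 genes did (0.0145%). The difference, glandular minus luminal, was -3.74 ± 2.05 for IGFBP3 (adjusted p = 0.867) and 3.40 ± 2.46 for IGFBP5 (adjusted p = 0.888), beside a median of 1.28 over all genes.

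**Figure D5:**
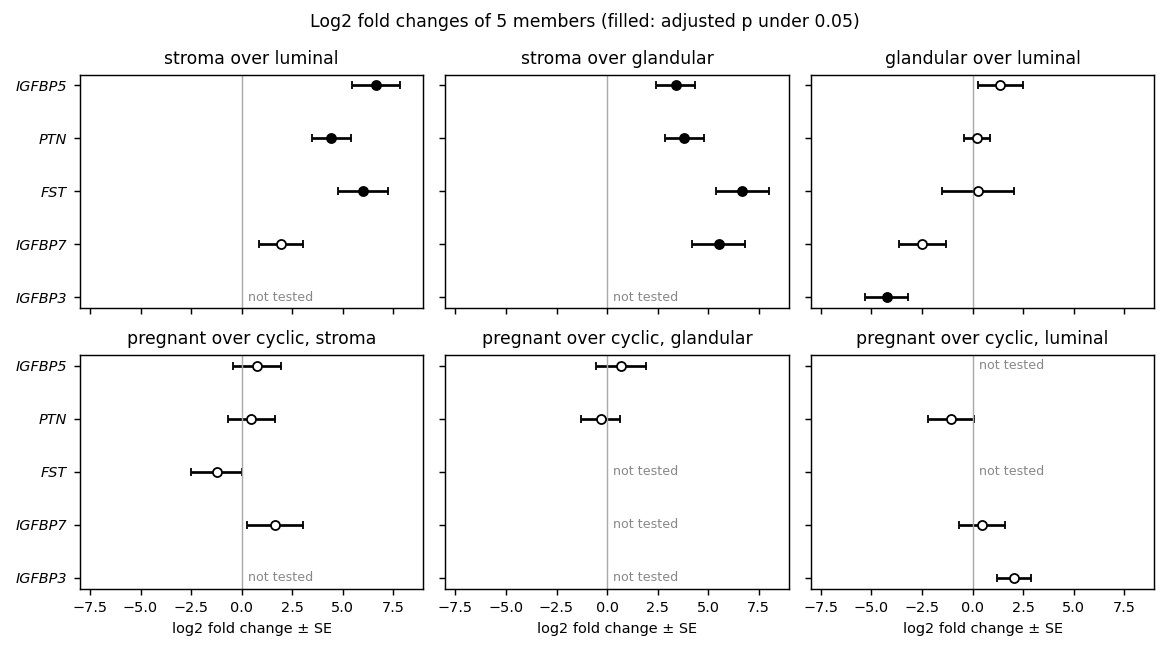
Log2 fold change ± SE of 5 genes in 6 comparisons, filled where the adjusted p was under 0.05, with comparisons named first group over second. The 8 filled points are IGFBP5, PTN and FST over luminal epithelium, the same 3 and IGFBP7 over glandular epithelium, and IGFBP3 as the lower gene of glandular over luminal epithelium; no pregnancy comparison has a filled point.

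The rest of each pathway was read from lists of genes without the members. On the ligand and receptor side of the IGF system, IGF2 had 0 of 11725611 counts in all 21 libraries, which allows a share of up to 2.56e-05% (3 counts), and IGF1 had 56 counts in 10 libraries, at most 14 in any. Its receptor IGF1R was present throughout, with group means of 582 ± 758 CPM in pregnant and 346 ± 97.1 CPM in cyclic stroma (SD, n = 2 each), 1303 ± 126 CPM in pregnant and 1293 ± 686 CPM in cyclic glandular epithelium (SD, n = 4 each), and 820 ± 548 CPM in pregnant (SD, n = 4) and 992 ± 279 CPM in cyclic luminal epithelium (SD, n = 5). None of the 3 list genes tested against luminal epithelium, 3 against glandular epithelium or 5 between the epithelia passed. Their median log2 fold changes were -1.97, -2.20 and 0.41, beside -0.60, -1.07 and 0.25 over all genes.

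Among 10 further IGF binders, IGFBP proteases and their inhibitors, the 1 called gene was STC1, whose protein stanniocalcin inhibits the protease PAPPA in human and mouse. It averaged 187 ± 140 CPM in pregnant and 68.8 ± 32.0 CPM in cyclic stroma (SD, n = 2 each), against 8123 ± 3367 CPM in pregnant (SD, n = 4) and 2694 ± 1062 CPM in cyclic luminal epithelium (SD, n = 5). It was lower in stroma than in luminal epithelium by a log2 difference of -5.26 ± 0.97 (adjusted p = 2.83e-05), and lower in glandular than in luminal epithelium by -4.24 ± 0.39 (adjusted p = 7.48e-25). PAPPA itself did not pass in stroma minus luminal epithelium (7.45, adjusted p = 0.269), on 26.8 and 268 CPM in the pregnant stromal libraries and 0 and 206 CPM in the cyclic ones. IGFBP1, the next gene to IGFBP3 in the RefSeq table, had 11 counts in 2 libraries.

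On the activin, BMP and TGF-beta side, 10 of 28 listed ligands, receptors and SMADs could be tested in stroma minus luminal epithelium and none was called, with a median of 0.42 beside -0.60 over all genes. Against glandular epithelium 1 of 12 was called, TGFBR2, the type II TGF-beta receptor (5.37 ± 1.46, adjusted p = 0.0277). Between the epithelia 1 of 16 was called, the ligand TGFB2, lower in glands (-3.69 ± 1.01, adjusted p = 0.00639). INHBA, which encodes the activin A subunit that follistatin binds, had 5.71 and 11.5 CPM in pregnant and 0 and 6.09 CPM in cyclic stroma. In luminal epithelium it had 7.19, 26.0, 367 and 542 CPM in pregnant and 74.2, 129, 158, 483 and 542 CPM in cyclic libraries. Its stromal difference from luminal epithelium was -5.96 ± 1.96 (adjusted p = 0.103), and between the epithelia it was -1.90 ± 0.65 (adjusted p = 0.05004, just over the threshold).

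Of 11 other secreted antagonists, 9 were in the table, and DCN, the proteoglycan decorin that binds TGF-beta, was the 1 called in stroma minus luminal epithelium (6.42 ± 1.39, adjusted p = 0.000761, 1 of 4 tested). The median of those 4 was 2.69, beside -0.60 over all genes. DCN is also on the fibroblast marker list. Of 12 midkine family genes and receptors or binders of PTN, none of 5 tested in stroma minus luminal epithelium passed. LRP1, a cell surface receptor that binds midkine, came nearest (5.15 ± 1.57, adjusted p = 0.0572), and the median of the 5 was 0.83. None of the pathway genes tested was called between pregnant and cyclic libraries in stroma, glandular or luminal epithelium.

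Genes whose levels ran most like a member over the 21 libraries were found by Pearson's r of log2 CPM among 8908 genes with a symbol. For IGFBP5 they were ABCA8 (0.83), OLFML3 (0.82) and FBLN2 (0.82), and for PTN they were ABCA8 (0.86), JPH4 (0.85) and APOD (0.83). FST ran with GNG11 (0.86), LYVE1 (0.83) and PECAM1 (0.83), of which the last 2 are textbook endothelial genes. IGFBP7 ran with JAG1 (0.79), TFPI2 (0.78) and TM4SF1 (0.78), and IGFBP3 with CFAP45 (0.84), HYDIN (0.84) and FHAD1 (0.84), of which CFAP45 and HYDIN encode parts of motile cilia. Libraries of 1 biopsy share their animal and the points fall by compartment, so these values describe the layout of the tissue and carry no test. Over the 19 libraries of the authors' second table, 2 of the 3 genes were the same for FST, IGFBP7 and PTN, and 1 of 3 for IGFBP5 and IGFBP3. That table lacks 2 libraries of mare M, a luminal one from pregnancy and a glandular one from the cycle. Their RN18S shares were 0.452% and 0.293%, and both were kept in the main results. The luminal one holds the highest luminal IGFBP7 level, at 260 CPM, and the pregnant luminal IGFBP3 value of mare M.

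Among the members, IGFBP5 and PTN ran together (r = 0.79 over 21 libraries, 0.40 over the 17 epithelial ones). IGFBP5 and FST had r = 0.55 over 21 libraries and -0.42 over the 17 epithelial ones, so their likeness came with the stromal libraries. IGFBP7 and IGFBP3 had r = 0.26 over all and 0.63 over the epithelial libraries. IGFBP5 and IGFBP3 had r = -0.48 over all and -0.41 over the epithelial libraries.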

How the data were processed

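Members and gene lists were chosen with earlier results of these data known. The submitters' processing notes name Trimmomatic 0.32.2 (a read trimmer) and HISAT2 2.0.3 (an aligner). Counting tool, build and annotation: not given in the sources used here. Deposited by the authors were raw read counts (whole numbers) for 24942 gene IDs in 21 libraries, which were used for all main results. The authors also deposited 2 tables of scaled signal named CPM, of 21 and 19 libraries, each value the count divided by 1 constant per library; these served as alternatives and hold 7 of the 8 members, without IGFBP2. Symbols came from a RefSeq gene table, used for names and neighbours only, and 21420 IDs (85.9%) matched.

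Tests used edgeR 4.0.16 in R 4.3.3: quasi-likelihood F-tests (two-sided), TMM scaling, filterByExpr (minimum count 10, minimum total 15) and Benjamini-Hochberg adjustment over all genes tested, at 0.05; an adjusted p with no tool named comes from edgeR. The SE is the absolute log2 fold change divided by the square root of F. Pregnant and cyclic libraries were compared within a compartment without a block. Compartments were compared on counts summed per mare over the same biopsies, with the mare as a block. Mare letters come from the labels and mark the same animal, so they pair the states; deviations of a mare's libraries from their group means correlated at r = -0.014 to 0.055 over 9789 genes. Correlations used log2 CPM with a prior count of 2. All 8 members are named; likeness was limited to the 3 closest genes with a symbol per member. Alternatives were DESeq2 1.42.0, its size factors in edgeR, no filter, no ribosomal RNA genes, a joint fit, other ways of summing and blocking, limma 3.58.1 on the deposited signal, and leaving out each library or mare. Scripts were tested on simulated data. Total counts of 136259 to 1467510 limit precision, and floors cover only counting error, because reads amplified with no molecular identifier are not separate molecules. Without strand or a rule for shared reads, overlapping and antisense genes are uncertain. No sequences of the members were used here.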

Additional observations from a re-analysis of the deposited data

Results flagged for a closer look

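Groups of 4 or 5 libraries were screened by Dixon's gap ratio (the gap to the nearest library divided by the whole range). By this ratio 1 library stood apart from the others in 11 of 30 member and group combinations. The cutoff flags about 1 in 20 groups only where values are normally distributed. Levels here were sparse and skewed, so the number of flags cannot be compared with chance. For IGFBP3 the flagged library was that of mare C, in pregnant luminal (ratio 0.881, 1465 CPM) and pregnant glandular epithelium (ratio 0.938, 10.4 CPM). For IGFBP7 it was mare C in cyclic glandular epithelium (ratio 0.935, 207 CPM). The ciliated marker sum of that library, 479 CPM, was the highest of the 8 glandular libraries, and its part in this value was not tested. For FST it was mare B in cyclic luminal epithelium (ratio 0.806, 35.9 CPM).

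The other 7 had a ratio of 1, because all other libraries of the group were at 0. They were IGFBP4 in pregnant glandular (mare B, 11.5 CPM), cyclic glandular (mare B, 17.6 CPM) and pregnant luminal epithelium (mare U, 60.3 CPM), IGFBP6 in pregnant glandular (mare M, 28.7 CPM) and cyclic glandular epithelium (mare B, 18.4 CPM), and IGFBP2 in cyclic glandular (mare B, 11.7 CPM) and cyclic luminal epithelium (mare U, 8.37 CPM). They rest on 5 to 23 counts each.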

How the results depend on the processing

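Of 306 log2 fold changes of members recomputed under alternatives, 275 kept their direction and side of the threshold, 19 lost a call, 1 gained one and 11 changed sign, none of these called. Members called in stroma minus luminal epithelium (3) numbered 1 to 3 without single mares. In stroma minus glandular epithelium (4) they numbered 0 to 3 without single mares, 2 without the filter and 1 without the pregnant biopsy of mare M, an alternative chosen after seeing the data. In glandular minus luminal epithelium (1) they numbered 0 to 1 without single mares and 2 by DESeq2. Sign changes without single libraries or mares gave ranges of -1.27 to 0.62 for PTN in glandular pregnancy, -0.11 to 2.40 for IGFBP7 in stromal pregnancy, -2.58 to 0.40 for IGFBP7 in the difference between epithelia, -0.46 to 2.22 for IGFBP6 in stroma minus glands, and, in glands minus luminal epithelium, -0.65 to 0.49 for FST and -0.30 to 0.70 for PTN. IGFBP6 in stroma minus glands was 0.086 by DESeq2 and 1.43 with no replicate block, and FST in glands minus luminal epithelium was -0.38 with no replicate block, both fits chosen after seeing the data. The causes were not tested. With the mare as a replicate block, members called in pregnancy remained 0 in both epithelia, all genes called numbered 12 (main 19) in luminal, where this fit also leaves out mare J and 15 were called without mare J and with no block, and 0 (main 3) in glandular epithelium, and the block changed no call of a member. No paired analysis was possible in stroma because the states shared only mare M. Over the alternatives the count of all genes called ran from 18 to 474 (main 61) in stroma minus luminal, 0 to 504 (main 63) in stroma minus glandular, 230 to 1010 (main 498) in glandular minus luminal epithelium, 1 to 83 (main 19), 0 to 34 (main 3) and 0 to 4 (main 0) for pregnancy in luminal, glandular and stromal libraries, and 0 to 65 (main 1) for the difference between epithelia. Depth limits IGFBP2, IGFBP4, IGFBP6 and the epithelial levels of FST and IGFBP5.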
